A study of Ovis aries with 7 samples.

Results

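Transcripts of the T-cell receptor complex and of the chemokine XCL1 were followed in the hypothalamus of late-gestation sheep fetuses after transient low oxygen. The set held 7 of the 997 genes named on the array, CD3E, CD3D, TCRD19, CD247, LCK, CD5 and XCL1, measured by 13 of its 15008 distinct probes (a 1-colour sheep oligonucleotide array). Its members are all probes that the array assigns to these symbols. The set was drawn up because CD247 and CD3E had moved in opposite directions between hypoxia and control on these same arrays. That contrast therefore chose the members, and their differences in it are given as a description, with standard errors and without a test.

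There were 2 groups, both of chronically catheterised fetuses. In the hypoxia group of 3 fetuses the ewe inspired gas of low oxygen pressure for 30 min, and normal oxygen was then restored for 30 min. In the control group of 4 age-matched fetuses normal oxygen was kept for the same 60 min. Whole hypothalamus was collected at the end, 60 min after the start of hypoxia, and each fetus gave 1 array. The 3 hypoxia arrays lay on slide 1, control replicates 1 and 2 on slide 2 and control replicates 3 and 4 on slide 3, and each slide had a scan time of its own. Slide and hypoxia therefore cannot be told apart. Spots well above background, by the scanner software's own mark, made up 77.2% to 86.4% of the spots on an array. The tissue label was met by its markers: AGRP, GAL, GHRH, NPY, OXT, POMC and SST, 7 of 7 neuropeptide genes on the array from a list of hypothalamic and neuronal genes, were well above background on all 7 arrays.

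A T cell recognises antigen through a receptor of paired alpha and beta or gamma and delta chains, which have almost no signalling part of their own. The signal passes through the CD3 gamma, delta and epsilon chains and through the zeta chain, encoded by CD247, whose tails are phosphorylated by the kinase LCK. CD5 is a surface protein that dampens this signal, and XCL1 (lymphotactin) is a chemokine released by activated T cells and natural killer cells that attracts cells bearing the receptor XCR1. Sheep, like other ruminants, carry many gamma-delta T cells, a large share of which bear the scavenger receptor protein WC1. CD247 is shared with natural killer cells, where it serves Fc and natural cytotoxicity receptors, while the CD3 chains mark T cells more narrowly. In the RefSeq gene table of sheep, CD3E and CD3D are direct neighbours on the chromosome and CD3D is followed by the CD3 gamma gene, whereas CD247 lies elsewhere. The array files give no genome build for the probes, so no coordinates are given.

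The probe sequences decide how far 2 probes of a gene are separate measurements, so the stretches that show this are printed here. Probes were 60 bases long, and 30 bases are shown for all genes but LCK, which has a single probe and is shown whole. Capitals mark bases that both probes of a gene hold, and lower case marks bases of 1 probe only. A probe is named by the position in its source sequence at which it starts.
CD247, shared by the probes at 771 and 791: TGTAACATTTGGTCATACCCAGTTCCAAAC
CD3D, shared by the probes at 1047 and 1077: TCTTTAGTACCCATTTCCCTGTATAGAAGG
CD5, shared by the probes at 1716 and 1717: GGTGGGAGGGAGGGCTGATTTCTCTCATGT
XCL1, shared by the probes at 405 and 406: GCCAGCCACCTCATTTCCCTTTAAAGCTCA
CD3E, start of the probe at 1085: tattccacctacctttctctgtttctagct
CD3E, start of the probe at 1242: gatggtcatttgtagctccatgaatgtgct
TCRD19, start of the probe at 739: caaaaccaacggaatctgaaaacaccacag
TCRD19, start of the probe at 874: cgccgtcattttctctttactgccaagtat
LCK, whole probe at 1347: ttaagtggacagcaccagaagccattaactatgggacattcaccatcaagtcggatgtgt
The CD5 probes and the XCL1 probes share 59 of 60 bases, so these pairs read nearly the same stretch of RNA. The CD247 probes share 40 bases and the CD3D probes 30, so these pairs overlap in part. The CD3E probes start 157 bases apart and the TCRD19 probes 135, so they read separate stretches. No member probe shares 20 bases in a row with any other probe of the array, on either strand, apart from its own partner.

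CD3E and TCRD19 stood lower after hypoxia on every array, and CD247 stood higher on every array. XCL1 was higher with separated groups on 1 of its 2 probes. CD3D was lower and CD5 higher on average only, with overlapping groups, and the LCK difference was smaller than its standard error. Of the 13 probes, 7 had all hypoxia arrays on one side of all control arrays. These were 3 higher ones, both of CD247 and 1 of XCL1, and 4 lower ones, both of CD3E and both of TCRD19. TCRD19 was well above background on controls only. Among member probes well above background on all 7 arrays, 5 had separated groups. Over the 12711 probes tested, 16.2% had groups that did not overlap, 8.76% higher and 7.46% lower, but the members were picked on this contrast and nothing is read from their count. Levels are log2 processed signals relative to the 75th percentile of the array, so that 0 is that percentile and values are comparable between arrays for 1 probe, not between probes.

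**Figure D1:**
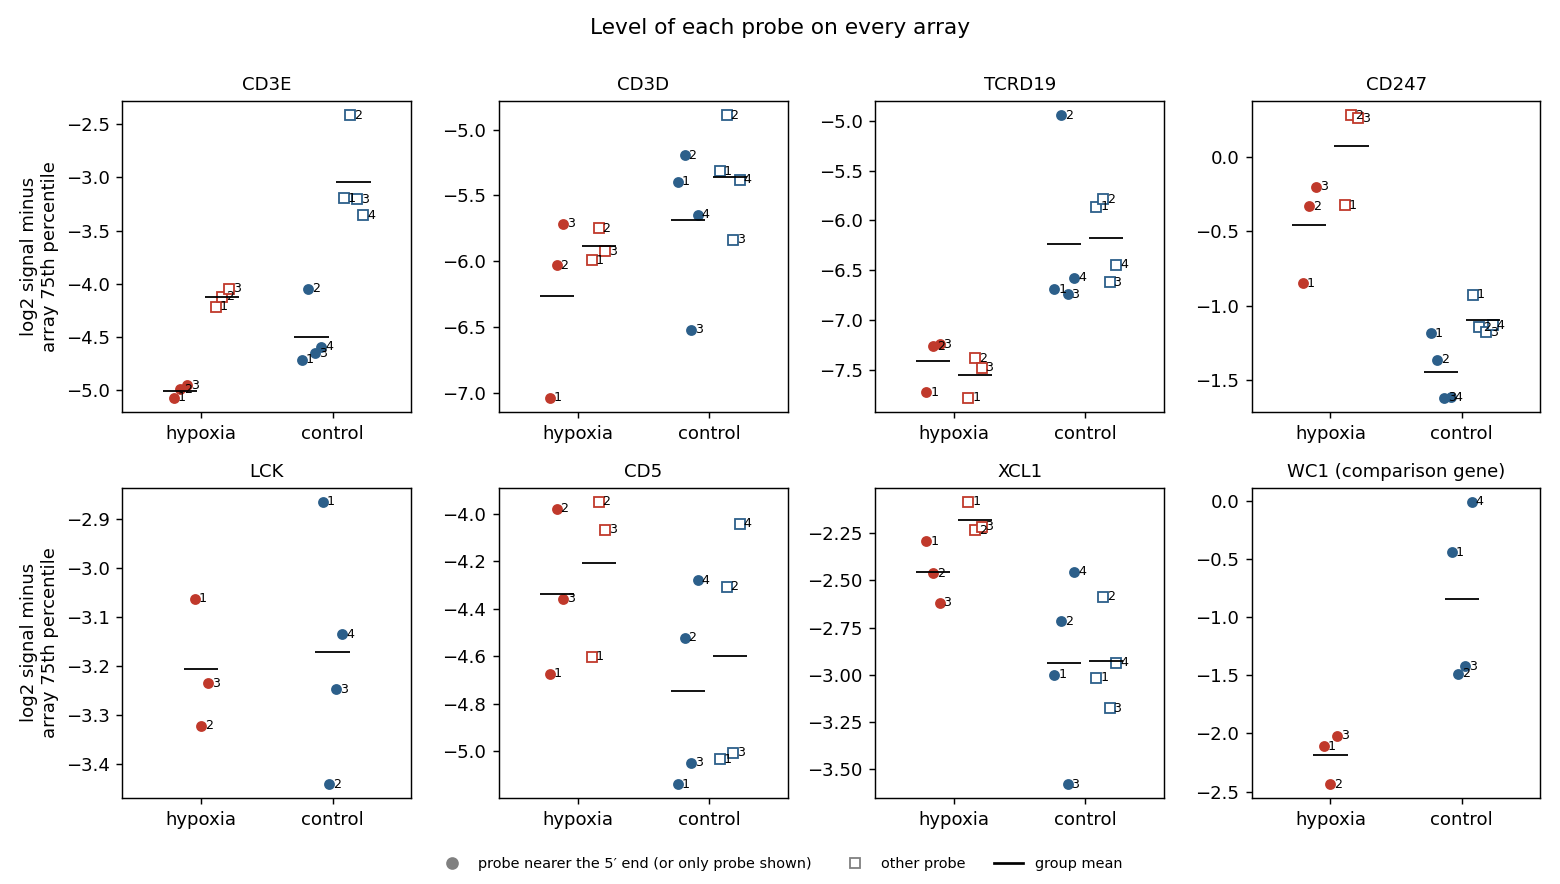
Level of every member probe on each array, with the array's replicate number beside each point; the y axis is log2 signal minus the array's 75th percentile, red is hypoxia, blue is control, and black lines are group means. CD3E and TCRD19 lie lower and CD247 higher on all 3 hypoxia arrays, CD3D, LCK and CD5 overlap, and the brightest WC1 probe is drawn for comparison.

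CD3E encodes the epsilon chain, needed for every T-cell receptor to reach the cell surface. Its probe at 1242 read -4.21, -4.12 and -4.05 on hypoxia replicates 1 to 3 and -3.20, -2.42, -3.21 and -3.35 on control replicates 1 to 4. The 3 hypoxia arrays lay within a narrow band below all controls, and control replicate 2 stood above the other controls. The means were -4.13 ± 0.084 (SD, n = 3) and -3.04 ± 0.42 (SD, n = 4), a log2 difference of -1.08 (SE 0.22), or 2.12-fold lower. The probe at 1085 read -5.07, -4.99 and -4.95 in hypoxia against -4.71, -4.05, -4.65 and -4.59 in control. The groups again did not overlap and control replicate 2 was again the highest, but the difference was smaller, at -0.50 (SE 0.17). The 2 CD3E probes had a Pearson correlation of 0.96 over the 7 arrays but gave different sizes. Control replicates 1, 3 and 4 ranked in opposite order on the 2 probes. Without control replicate 2 the differences were -0.87 for the probe at 1242 and -0.35 for that at 1085.

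CD3D encodes the delta chain of CD3, which pairs with epsilon. Its probe at 1077 read -5.99, -5.75 and -5.92 in hypoxia against -5.32, -4.89, -5.84 and -5.38 in control. Hypoxia arrays were low, but control replicate 3 fell among them and the groups overlapped, with a difference of -0.53 (SE 0.21). The probe at 1047 read -7.04, -6.03 and -5.71 against -5.39, -5.19, -6.52 and -5.65, a difference of -0.57 (SE 0.40). The low values here were hypoxia replicate 1 and control replicate 3, and without hypoxia replicate 1 the difference was -0.18. The signals were dim, at 19.7 to 68.2 units over both probes, where the lowest signal marked as well above background was 11.9 to 21.3 units on an array. With another background correction (normexp, offset 50) both CD3D differences shrank, to -0.12 and -0.10.

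TCRD19 is, by its symbol, a transcript of the receptor delta chain. Its probe at 874 read -7.78, -7.39 and -7.48 in hypoxia against -5.86, -5.79, -6.62 and -6.45 in control. Its probe at 739 read -7.73, -7.26 and -7.25 against -6.69, -4.95, -6.74 and -6.58. On both probes all hypoxia arrays were below all controls, and on the probe at 739 control replicate 2 stood far above the other controls. Both probes met the filter of 3 arrays well above background through the controls alone, where they are high, which favours lower values in hypoxia. TCRD19 was not well above background on any hypoxia array, so its fold was taken against a floor. The floor of an array is its lowest signal marked as well above background. The control mean was set against the hypoxia mean, taking on each array the floor or the probe's own signal, whichever was higher. The probe at 874 was well above background on 4 of 4 controls and in this way 2.01-fold lower in hypoxia. The probe at 739 was well above background on 3 of 4 controls and 1.93-fold lower. Its control mean includes control replicate 1, which was not well above background there, at 19.9 units. These folds have no error and are not strict minimums, since a spot not well above background can read above the floor. The measured log2 differences were -1.37 (SE 0.23) and -1.17 (SE 0.44). Without control replicate 2 the probe at 739 gave -0.74. With normexp the differences were -0.17 and -0.28. The processed signals of TCRD19 were 11.8 to 65.6 units, and normexp adds an offset of 50 to every signal.

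CD247 encodes the zeta chain, the main signalling tail of the receptor complex. Its probe at 791 read -0.33, 0.28 and 0.26 in hypoxia against -0.93, -1.15, -1.18 and -1.13 in control. All hypoxia arrays were above all controls, with hypoxia replicate 1 the lowest of its group and the controls close together. The means were 0.072 ± 0.34 (SD, n = 3) and -1.096 ± 0.11 (SD, n = 4), a difference of 1.17 (SE 0.17), or 2.25-fold higher. The overlapping probe at 771 read -0.85, -0.33 and -0.20 against -1.19, -1.37, -1.62 and -1.62, a difference of 0.99 (SE 0.19), and the 2 probes correlated at 0.98. CD247 was bright, at 773 to 2816 units, and with normexp the differences were 1.104 and 0.88. The zeta chain thus stood higher on the same 3 arrays on which the epsilon chain, its partner in the complex, stood lower.

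LCK is the kinase that phosphorylates the CD3 and zeta tails. Its probe read -3.06, -3.32 and -3.24 in hypoxia against -2.86, -3.44, -3.25 and -3.14 in control. The hypoxia arrays lay inside the range of the controls. The difference of -0.035 (SE 0.15) turned to 0.013 with normexp, to 0.0016 with the deposited unscaled values, to 0.023 without hypoxia replicate 2 and to 0.068 without control replicate 1.

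CD5 is carried by T cells and by some B cells. Its probe at 1717 read -4.60, -3.95 and -4.07 in hypoxia against -5.03, -4.31, -5.01 and -4.04 in control. Control replicates 1 and 3 were low while control replicates 2 and 4 lay among the hypoxia arrays. The difference was 0.39 (SE 0.29), and the probe at 1716, shifted by 1 base, gave 0.41 (SE 0.26). With normexp the probe at 1717 gave 0.19, and without hypoxia replicate 2 the probe at 1716 gave 0.23.

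XCL1 was the chemokine of the set. Its probe at 406 read -2.08, -2.23 and -2.22 in hypoxia against -3.01, -2.59, -3.18 and -2.94 in control. All hypoxia arrays were above all controls, with means of -2.18 ± 0.082 (SD, n = 3) and -2.93 ± 0.25 (SD, n = 4) and a difference of 0.75 (SE 0.15), or 1.68-fold higher. The probe at 405, shifted by 1 base, read -2.29, -2.46 and -2.62 against -3.00, -2.72, -3.58 and -2.45. Here control replicate 4 reached the hypoxia arrays, so the groups overlapped, and the difference was 0.48 (SE 0.26), or 0.27 without control replicate 3. The offset between these near-identical probes ran from -0.48 to 0.40 over the 7 arrays, with a correlation of 0.76. The offset between 2 readings of nearly the same sequence thus varied over arrays by more than either XCL1 difference. XCR1, the receptor of XCL1, was not found by name among the probes.

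**Figure D2:**
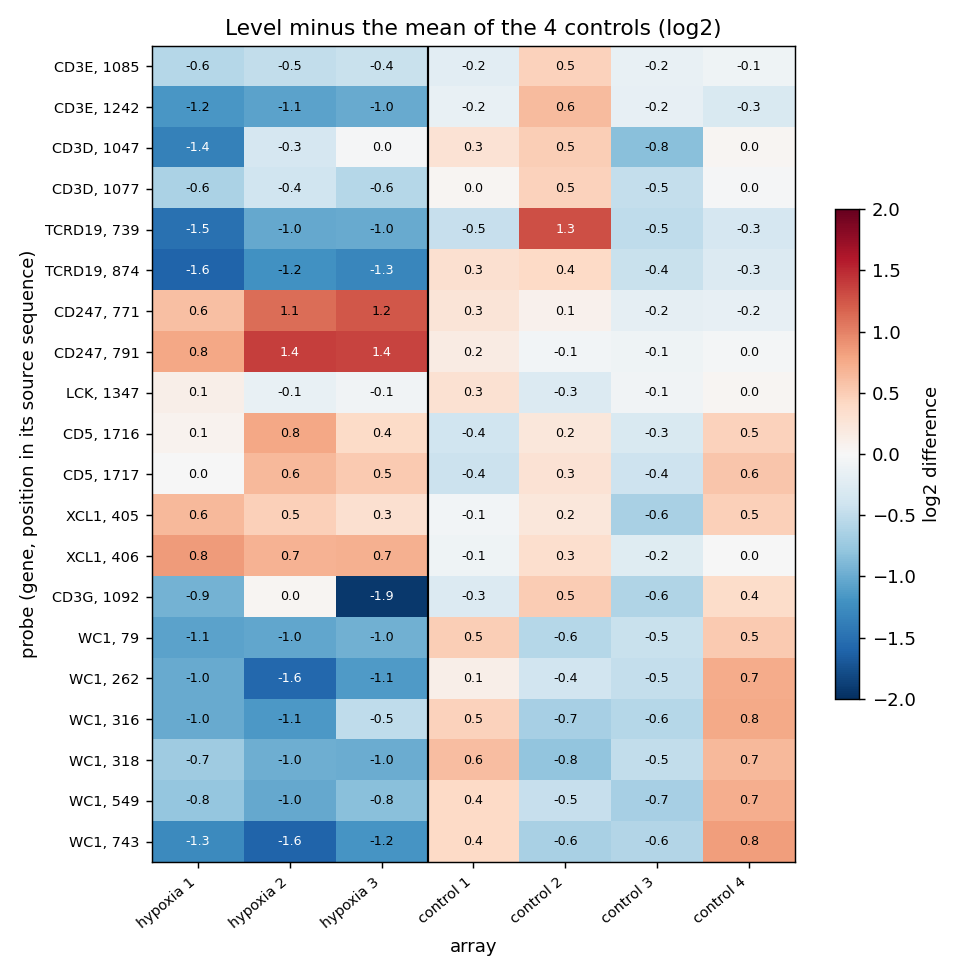
Each cell is the log2 level of a probe on an array minus the mean of the 4 controls for that probe; rows are the member probes, CD3G and the 6 WC1 probes, named by position in their source sequence, and columns are arrays, with a line between the hypoxia and control groups. Control 2 is red for CD3E, CD3D, TCRD19 and CD3G, while controls 1 and 4 are red for WC1.

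The control arrays alone show how much these transcripts varied without hypoxia. Control replicate 2 was the highest control on both CD3E, both CD3D and both TCRD19 probes, on the XCL1 probe at 406 and on CD3G, where it is the highest in 29.8% of 12694 tested probes. Relative to the mean of the other 3 controls, it was higher by 0.83 for the CD3E probe at 1242, by 0.62 for the CD3D probe at 1077, by 1.72 for the TCRD19 probe at 739 and by 0.69 for CD3G. It was not the highest control for CD247 and LCK, where control replicate 1 led, nor for CD5, where control replicate 4 did. The difference between the control slides was a contrast that had no part in choosing the members. In limma, 0 of 13 member probes passed an adjusted p of 0.05 between slide 3 and slide 2, where 1.23% of 12685 probes did and 10.2% had an unadjusted p under 0.05. The smallest adjusted p was that of the TCRD19 probe at 874, with a difference of -0.71 (SE 0.17, limma adjusted p = 0.186), and the others ran up to 0.967. The background count rests on sharing the spread of all 7 arrays, since 2 probes passed when only the 4 controls were fitted.

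Hypoxia was set against each control slide as well. The CD247 probe at 791 differed by 1.11 from slide 2 and by 1.23 from slide 3, and the XCL1 probe at 406 by 0.62 and 0.88. The CD3E probe at 1242 differed by -1.32 from slide 2, which holds control replicate 2, and by -0.85 from slide 3. For the CD3D probe at 1077 the values were -0.78 and -0.28. The measured values of the TCRD19 probe at 874 were -1.73 and -1.02, on hypoxia arrays where it was not well above background. The directions of these 5 probes were the same against either slide. Separated groups fixed this in advance for all of them but the CD3D probe, so nothing is read from it.

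**Figure D3:**
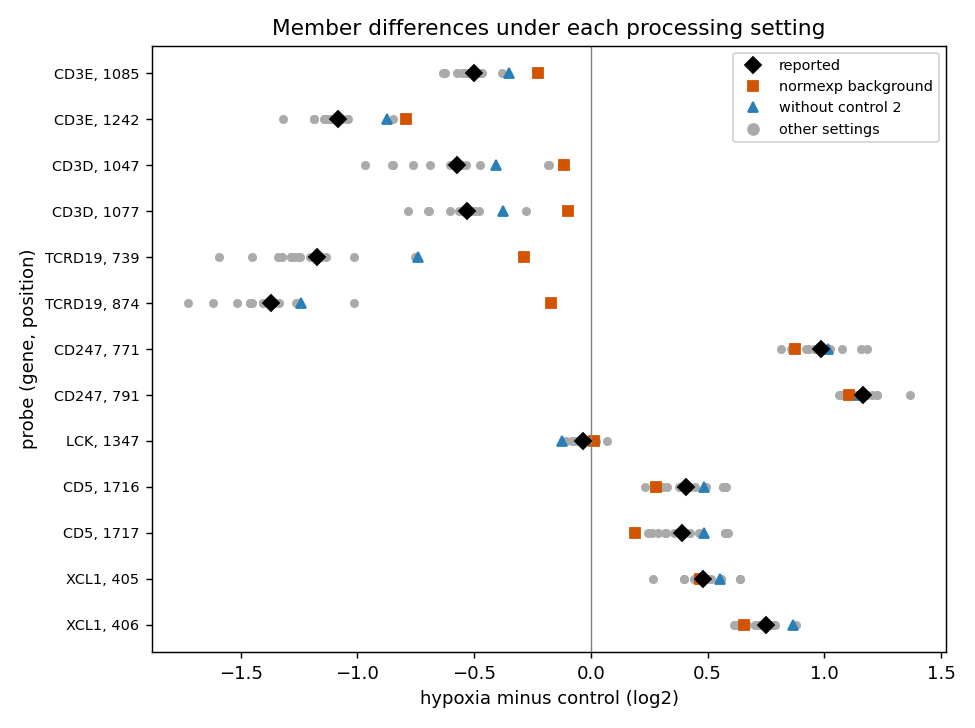
Log2 difference, hypoxia minus control, of each member probe under the reported processing (black), with normexp background correction (orange), without control replicate 2 (blue) and under the other alternatives (grey). LCK alone crosses 0; CD247 moves little, and TCRD19 and CD3D shrink most with normexp.

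Genes outside the set were read from the same limma fit, and their p-values are given. The lists were chosen with earlier results of these data known, so these p-values are not an independent test. A list of 73 other T-cell and natural killer genes had 15 on the array and 9 with a probe well above background on at least 3 arrays. Of these 9, 6 had higher and 3 lower means in hypoxia, with a median difference of 0.22, beside 0.028 over all tested probes. None passed an adjusted p of 0.05 in limma, where 2 of 12711 probes did (0.0157%), and 2 of the 9 had an unadjusted p under 0.05, beside 15.7% of all tested probes. A list of 31 signalling genes downstream of the receptor had no member found by name on the array, where 13392 of 15008 probes carry no name here, so ZAP70, FYN and LAT have no value here.

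The genes at the lower end were the CD3 partner and a gamma-delta T-cell marker. CD3G, the gamma chain of CD3, read -7.23, -6.25 and -8.23 in hypoxia against -6.57, -5.78, -6.90 and -5.93 in control. Its groups overlapped through hypoxia replicate 2, and it was well above background on 1 of 3 hypoxia and 3 of 4 control arrays. It thus passed the filter mostly through the controls, where it is high, which favours a lower value in hypoxia. Its difference was -0.94 (SE 0.47, limma adjusted p = 0.373), -0.45 without hypoxia replicate 3 and -0.16 with normexp. WC1, which the array calls T19, had 6 probes, and its brightest, at 743, read -2.11, -2.44 and -2.02 against -0.45, -1.49, -1.42 and -0.0099. All hypoxia arrays were below all controls on this probe, and control replicates 1 and 4, not replicate 2, were the highest. The groups were separated on 4 of the 6 WC1 probes and overlapped on 2, beside 7.46% of all tested probes with separated groups lower in hypoxia. The difference at 743 was -1.35 (SE 0.37, limma adjusted p = 0.200), and the 6 probes ran from -1.35 to -0.88. All 6 were negative in each alternative run, where they ranged from -1.56 without control replicate 2 to -0.58 with normexp. WC1 is a family of similar genes, so its probes may read several of them and are not independent. FCER1G, the signalling chain of Fc receptors and a relative of zeta, had a difference of -0.14 (SE 0.17, adjusted p = 0.719).

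At the higher end stood GATA3, a transcription factor of T helper cells that neurons and other cells also use, with a difference of 0.72 (SE 0.42, limma adjusted p = 0.429). Without hypoxia replicate 2 it was 0.33. IL15, a cytokine that sustains natural killer and memory T cells, read -4.68, -4.20 and -4.19 against -5.21, -5.08, -4.86 and -4.85. All its hypoxia values were above all controls, with a difference of 0.64 (SE 0.16, adjusted p = 0.180), the smallest adjusted p of the list, while its 3 other probes were dim and not tested. CTLA4, an inhibitory receptor of activated T cells, had 0.54 (SE 0.24, adjusted p = 0.338), IFNG, the gene of interferon gamma, 0.26 (SE 0.24, adjusted p = 0.606), and IL2RA, the interleukin 2 receptor alpha chain, 0.13 (SE 0.19, adjusted p = 0.776). CTLA4 was well above background on 3 of 3 hypoxia and 2 of 4 control arrays. It thus passed the filter through the group where it is high, which favours a positive difference. Without single arrays, CTLA4 ran from 0.36 to 0.69 and IFNG from 0.080 to 0.40. With normexp IL15 was at 0.39, CTLA4 at 0.19 and IFNG at 0.17. GNLY, a protein of cytotoxic granules, had 0.22 (SE 0.16, adjusted p = 0.534). CD4, the co-receptor of helper T cells, was well above background on 0 of 7 arrays with both its probes, and IL2 on at most 2 arrays, so neither was tested. CD2, CD8A, CD8B, PTPRC and IL7R were not found by name.

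**Figure D4:**
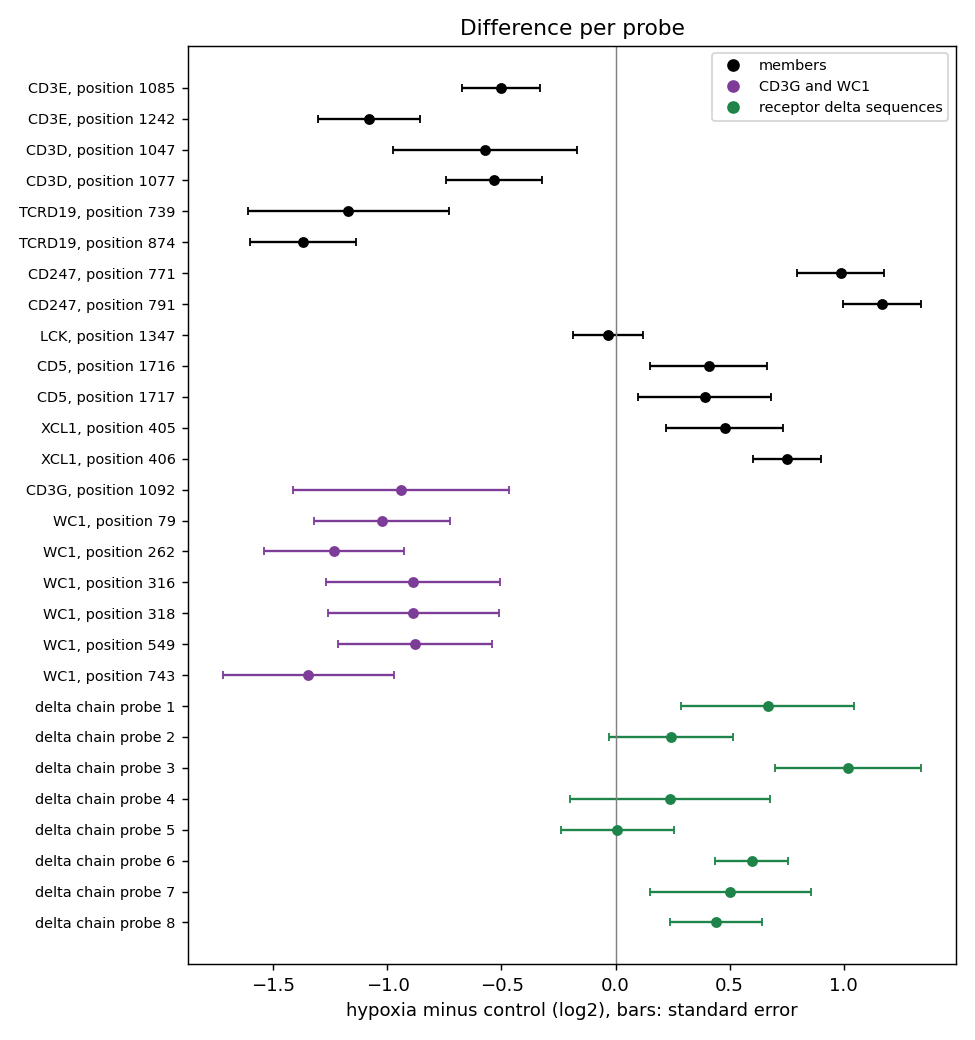
Log2 difference, hypoxia minus control, with its standard error for each member probe (black), CD3G and WC1 (purple) and the 8 tested probes of receptor delta sequences (green). CD3E, CD3D, TCRD19, CD3G and WC1 lie left of 0, and CD247, XCL1, CD5 and the receptor delta sequences lie right of it.

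The array also holds 46 probes described as sequences of the receptor chains themselves, a set put together after the files were seen: 1 alpha, 15 beta, 6 gamma and 24 delta. Of these, 25 were well above background on no array and 13 were tested. In the tested set 11 had higher and 2 lower means in hypoxia, with a median of 0.36, where 54.7% of all tested probes were higher. In limma 0 passed, the smallest adjusted p was 0.197, and 2 of the 13 had an unadjusted p under 0.05, a share close to the 15.7% of all tested probes. The 8 tested delta probes had positive differences, with a median of 0.47, but 4 of them were well above background on all 3 hypoxia arrays and only 1 or 2 controls. Those 4 passed the filter through the group where they are high, which favours positive differences. The 3 delta probes above background on all 7 arrays differed by 1.02, 0.44 and 0.0086. Under the alternatives 6 to 8 of the 8 were positive, with 6 against slide 3 alone and 7 with median scaling, with quantile normalization, against slide 2 alone and without hypoxia replicate 2 or 3 or control replicate 1 or 3. The median was 0.23 with normexp. The largest difference was 1.02 (SE 0.32, adjusted p = 0.232), whose hypoxia arrays read -3.41, -4.68 and -4.73 against -5.56, -5.14, -5.26 and -5.20. The alpha probe differed by -0.028 (SE 0.21), the gamma probe by 0.36 (SE 0.17) and the 3 beta probes by -0.33 to 0.67. TCRD19 shares no 20 bases in a row with any of these probes, so it was read on different sequence.

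Whole tissue holds many cell types, and a lower level can mean fewer cells of a type or less RNA per cell, which cannot be told apart here. Marker lists of other cells were therefore read beside the members. B-cell markers had 3 tested of 3 genes on the array, all with lower means, at a median of -0.96. IGHM, the heavy chain of immunoglobulin M, differed by -1.07 (SE 0.35, limma adjusted p = 0.243) and CR2, the complement receptor of B cells, by -0.96 (SE 0.32, adjusted p = 0.247), which was -0.32 with normexp. IGHG, the other gene of that list, differed by -0.24 (SE 0.17, limma adjusted p = 0.514). The mean level of that list ran from -4.53 to -3.67 on hypoxia arrays and from -3.57 to -3.10 on controls. CR2 alone of these genes had groups that did not overlap, beside 16.2% of all tested probes, and IGHM and IGHG overlapped. Myeloid markers had 8 tested of 9 genes, 5 higher and 3 lower, at a median of 0.12, and their mean level of -3.29 to -3.28 in hypoxia lay within the controls' -3.47 to -3.04. The 2 largest differences were both on the lower side: LYZ, lysozyme, differed by -0.68 (SE 0.25, adjusted p = 0.271) and by -0.056 with normexp, and CYBA, a subunit of the phagocyte oxidase, by -0.55 (SE 0.10, adjusted p = 0.116). All hypoxia arrays lay below all controls for CYBA. On the higher side TLR4, a receptor for bacterial lipopolysaccharide named after its value was seen, differed by 0.39 (SE 0.15, adjusted p = 0.278), with all hypoxia arrays above all controls.

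Meningeal and fibroblast markers had lower means in 5 of 5 genes, at a median of -0.69, with a mean level of -0.82 to -0.12 in hypoxia and -0.33 to 0.41 in control. IGFBP2, a growth factor binding protein, differed by -0.93 (SE 0.28, adjusted p = 0.225) and TIMP1, a protease inhibitor, by -0.74 (SE 0.15, adjusted p = 0.124). Of the 5 genes, 2, TIMP1 among them, had all hypoxia arrays below all controls, beside 7.46% of all tested probes. Red cell and platelet markers had a median of -0.045 over 4 genes, with HBB, beta globin, at 0.67 (SE 0.69) and CA1, a carbonic anhydrase of red cells, at -0.63 (SE 0.59). HBB was at 0.29 without control replicate 2 and at 1.35 without control replicate 4, and CA1 at 0.091 without hypoxia replicate 3. Endothelial markers had a median of -0.28 over 5 genes, with the adhesion genes SELP at -1.17 (SE 1.03) and ICAM1 at 0.74 (SE 0.88). SELP was at -0.0040 without hypoxia replicate 1 and at -2.47 without hypoxia replicate 2. It was well above background on 1 of 3 hypoxia and 4 of 4 control arrays. SELP thus passed the filter through the controls, where it is high on average, which favours a lower value in hypoxia. ICAM1 read -1.86 on hypoxia replicate 2 and -5.73 to -4.60 on the other arrays, and its difference was -0.50 without that array. The part of any of these cell types in the member differences was not tested. No gene of these marker lists passed the adjusted threshold in limma, and 2 of 3 B-cell, 3 of 8 myeloid, 3 of 5 meningeal, 0 of 4 red cell and 0 of 5 endothelial genes had an unadjusted p under 0.05, beside 15.7% of all tested probes. These lists too were chosen with earlier results of these data known, so the shares are not an independent test.

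Among other chemokines and their receptors, 4 of 6 tested genes were higher in hypoxia, as XCL1 was, and 2 lower, with a median of 0.10. CXCL1, a neutrophil chemokine named after its value was seen, had the smallest adjusted p of that list, with a difference of 0.50 (SE 0.15, limma adjusted p = 0.209) and all hypoxia arrays above all controls. CXCL8, which draws neutrophils, differed by 1.38 (SE 0.82, limma adjusted p = 0.436) and read -1.20 on hypoxia replicate 2 against -5.25 to -4.48 on the other arrays. Without hypoxia replicate 2 its difference was 0.22. CXCL10, which draws activated T cells, differed by -1.18 (SE 0.40, adjusted p = 0.250), with -4.08, -3.36 and -4.24 in hypoxia and -2.83, -3.03, -3.30 and -1.67 in control, so that all hypoxia arrays lay below all controls.

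The members were also set against 820 other named genes by the Pearson correlation of level over the 7 arrays, which describes likeness and carries no test. The nearest to CD247 were GGCX at 0.97, KITLG at 0.97 and CITED2 at 0.94, and those to XCL1 were BHLHE40, PLAUR and PRMT1, each at 0.93. CD3E was nearest to GLUD1 at 0.96, to CENP-B and to TCRD19, both at 0.94, and CD3D to H3F3A, TCRD19 and AQP8 at 0.94, 0.91 and 0.90. TCRD19 was nearest to H3F3A at 0.98, CD3E at 0.94 and PYGM at 0.94. CD5 was nearest to SLAMF1, a receptor of lymphocytes, at 0.98, PER2 at 0.97 and NUDT16 at 0.96, and LCK to GLRX, MB and CSNK1E at 0.95, 0.87 and 0.84. All these correlations share the 2 groups, the 3 slides and the scaling of 7 arrays.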

How the data were processed

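Hypothalamic RNA of 7 fetuses was labelled with Cy3, 1 array per fetus. Per the file headers, Agilent Feature Extraction made the processed intensity of a spot by subtracting a fitted background and a spatial trend, with a surrogate where a spot was not above background. The deposited log2 values equal the log2 of that intensity within 5e-09 and are not scaled. Which test the submitters used is not stated here.

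Each array was scaled here by its 75th percentile. Outlier spots were dropped on their array, and saturated spots were kept. Probes marked above background on 3 or more of the 7 arrays, 12711 of 15008, entered limma 3.58.1 (R 4.3.3) with Benjamini-Hochberg adjustment. Names came from accessions, gene IDs and symbols matched to the RefSeq table of ARS-UI_Ramb_v3.0, and 13392 probes stayed unnamed. A list gene was read on its brightest tested probe.

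Members and lists were chosen with earlier results of these data known. The rule for names took all members, the 4 highest and 4 lowest genes of the T-cell lists with a fixed set, 3 neighbours per member and 2 genes per other list. GNLY, CXCL1, TLR4, the receptor chain probes and the neuropeptides of the tissue check were added to it after values were seen. Alternatives were other scalings, normexp, the deposited values, other filters, single slides, a replicate block, left-out arrays and another variance prior. In simulated copies of this comparison (10, each with 200 of 12711 probes changed) limma found 64.9% of the 2-fold and 90.2% of the 4-fold changes. Of its calls, 5.29% were false. The copies drew each probe and array independently and held no slide effect. They therefore check the fit only, and do not give the share of changes found in the real arrays. The number of arrays limits precision.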

Additional observations from a re-analysis of the deposited data

Results flagged for a closer look

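Among 59 sets of 4 control values, those of the member probes and of the list genes, 3 had 1 array whose gap to the nearest other control, as a share of the whole range, passed Dixon's criterion, where chance gives about 2.95. All 3 were on control replicate 2. The CD3E probe at 1242 read -2.42 there, against -3.35 to -3.20 on the other controls. The TCRD19 probe at 739 read -4.95, against -6.74 to -6.58. The probe of DCN, decorin of fibroblasts and meninges, read 1.23, against 2.01 to 2.09.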

How the results depend on the processing

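CD247, CD3E, CD3D, TCRD19, CD5 and XCL1 kept the direction of all their probes in each alternative run that held them. LCK did not, at 0.013 with normexp, 0.0016 with the deposited values, 0.023 without hypoxia replicate 2 and -0.12 to 0.068 over all left-out arrays. TCRD19 was absent from the run limited to probes well above background on all 7 arrays. For probes with separated groups, leaving out an array or a control slide could not turn the direction. With normexp 4 member probes had separated groups, in place of 7, and the CD3E probe at 1085 gave -0.23. Leaving out arrays gave 7 to 9, slide 2 alone 10 and slide 3 alone 7. With fewer arrays the groups of any probe separate more easily, and the share over all probes in these settings is not given here. Nothing is therefore read from these counts. Other T-cell genes past the threshold numbered 0 throughout. In hypoxia against control, 2 probes passed, and 0 with quantile normalization, percentiles over detected probes or no filter, 10 with normexp or the deposited values, 25 with probes seen on all 7 arrays, 232 against slide 2 alone, 4 against slide 3 alone, 57 with a trended and robust prior, 39 at an adjusted p of 0.1, and 0 to 6 without single arrays. Between the control slides 156 passed, and 70 with normexp, 469 with the deposited values, 640 with no filter, 2 with the 4 controls alone and 20 to 236 without single arrays. IL2RA turned to -0.074 with quantile normalization, and HBB to -0.0092 against slide 3. Without single arrays CA1 ran from -1.13 to 0.091 and ICAM1 from -0.50 to 1.43. OXT, at 0.36, ran from -0.44 to 0.79 without single arrays, with -0.026 without hypoxia replicate 1, and gave -0.44 with the block and -0.55 against slide 2. The causes were not tested. With the replicate number as a block 0 probes passed. After each probe's group mean was subtracted, what was left correlated between same-numbered arrays at 0.12, 0.09 and 0.11. Each hypoxia array correlated best with the control of its own number. The labels state no pairing, and whether the arrays were paired was not tested. Signals near background limit CD3D, CD3G and TCRD19.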
